A study of Physalis pubescens with 5 samples.

Results

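The TCP, SPL, YABBY, growth-regulating factor (GRF), LBD and OVATE transcripts of Physalis floridana P106 were followed from flower to young fruit. They were found by their names: a unigene, that is a transcript assembled from the reads, was a member when the description of its best protein hit named a TCP or cycloidea factor, a squamosa promoter-binding protein, a YABBY or CRABS CLAW protein, a growth-regulating factor, a LOB domain protein or OVATE. This took 113 of 133571 unigenes: 2 TCP, 46 SPL, 12 YABBY, 17 GRF, 34 LBD and 2 OVATE. The tomato protein was the best hit of 103 of them. The members shared 43 descriptions, and unigenes of 1 description may be pieces or near-identical copies of 1 transcript that divide its reads, so their separate levels are uncertain. The wording also set a limit. Another 57 unigenes were described as TCP factors in other words, such as TCP transcription factor or lanceolate, and 5 as LATERAL ORGAN BOUNDARIES-like. They are outside the account, and the TCP values below cover 2 unigenes of that family.

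RNA came from young fruits after fertilization (2 libraries, fruit replicates 1 and 2) and from floral buds before fertilization (2 libraries, floral bud replicates 1 and 2). All plants were the cultivar P106, labelled as the organism Physalis pubescens, and were kept under glass in long days, 16 h light and 8 h dark. The protocol speaks of fruits 5 days old. Whether the libraries stem from separate plants is not said in the labels, so the p-values reflect the spread between these samples alone, and that spread may be technical.

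All 6 families are regulators of organ growth and form in plants. YABBY factors mark the lower side of lateral organs and, with LBD proteins, keep organ boundaries and organ polarity. Many but not all SPL factors are held back by the microRNA miR156, several class II TCP factors by miR319 and many GRF factors by miR396. Cell division, ageing and organ size are so tuned together. OVATE was found in tomato as a gene of fruit shape.

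The fruit libraries differed in their makeup, which touches each comparison that follows. Total counts were 8240033 to 9002212 per library, 1 count was worth 0.111 to 0.121 CPM (counts scaled to a common library total), and a count of 0 allows a level of up to 0.333 to 0.364 CPM, counting error only. Transcripts named for pollen and anther (62 unigenes) summed to 875 and 7290 CPM in the fruit libraries (replicates 1 and 2), against 3408 and 4079 CPM in the bud libraries (replicates 1 and 2). Of those 62, 15 and 4 were at 0 in the fruit libraries, against 3 and 4 in the bud libraries. Transcripts of green tissue (45 unigenes, chlorophyll-binding proteins, the Rubisco small subunit and photosystem reaction centres) summed to 14055 and 4517 CPM in the fruit libraries and 5445 and 5214 CPM in the bud libraries. Seed storage and late embryogenesis transcripts (47) summed to 245 and 634 CPM in the fruit libraries and 5377 and 5567 CPM in the bud libraries, so that the sum was lower in both fruits than in either bud. Single unigenes of this list went both ways: edgeR called 0 of 19 tested in either direction over all libraries, but with fruit replicate 1 left out it called 2 higher and 6 lower, and with fruit replicate 2 left out 4 higher and 9 lower. Those of cyclins and histones H3 and H4 (121) were close in all libraries, at 2650 and 2404 CPM in the fruit libraries and 2190 and 2619 CPM in the bud libraries. Over the 90 members that passed the filter on low counts, fruit replicates 1 and 2 had a Pearson's r of 0.68 in log2 CPM, bud replicates 1 and 2 one of 0.90, and fruit and bud replicates 2 one of 0.93, a description across unigenes, which are not independent. In bulk tissue, fewer cells of a type and less RNA per cell cannot be told apart.

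Fruit was compared with floral bud to ask which of these regulators differ across the passage from flower to fruit. By the sum of each family, SPL and GRF transcripts overlapped between the organs. YABBY and LBD transcripts lay lower in both fruits than in either bud. For LBD this order rested on single descriptions such as LBD27-like and LBD36-like. The TCP pair differed most between the fruits. These sums were not tested. All 113 together came to 1272 and 1168 CPM in the fruit libraries and to 1352 and 1318 CPM in the bud libraries, each pair in the order of the replicate numbers. SPL unigenes made up the largest sum, 682 ± 76.8 CPM in fruit and 675 ± 15.2 CPM in bud (SD, n = 2 each). YABBY unigenes summed to 227 and 341 CPM in the fruit libraries, below both buds at 380 and 398 CPM. LBD unigenes stood at 155 and 125 CPM in the fruit libraries and 161 and 170 CPM in the bud libraries. Of this, the 4 LBD27-like unigenes made up 3.7 and 9.3 CPM in the fruit libraries and 60.6 and 39.8 CPM in the bud libraries. Without them the LBD sums of the organs would overlap, with fruit replicate 1 the highest. The same holds when the 5 LBD36-like unigenes are left out instead. Those were at 1.78 and 11.4 CPM in the fruit libraries and 17.1 and 21.9 CPM in the bud libraries. GRF unigenes were at 68.7 and 41.1 CPM in the fruit libraries and 71.8 and 45.6 CPM in the bud libraries, so they differed between replicate numbers more than between organs. The TCP pair summed to 84.8 and 32.9 CPM in the fruit libraries and 53.0 and 37.0 CPM in the bud libraries, and the OVATE pair to 0.778 and 1.82 CPM in the fruit libraries and 0.578 and 3.58 CPM in the bud libraries.

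**Figure D1:**
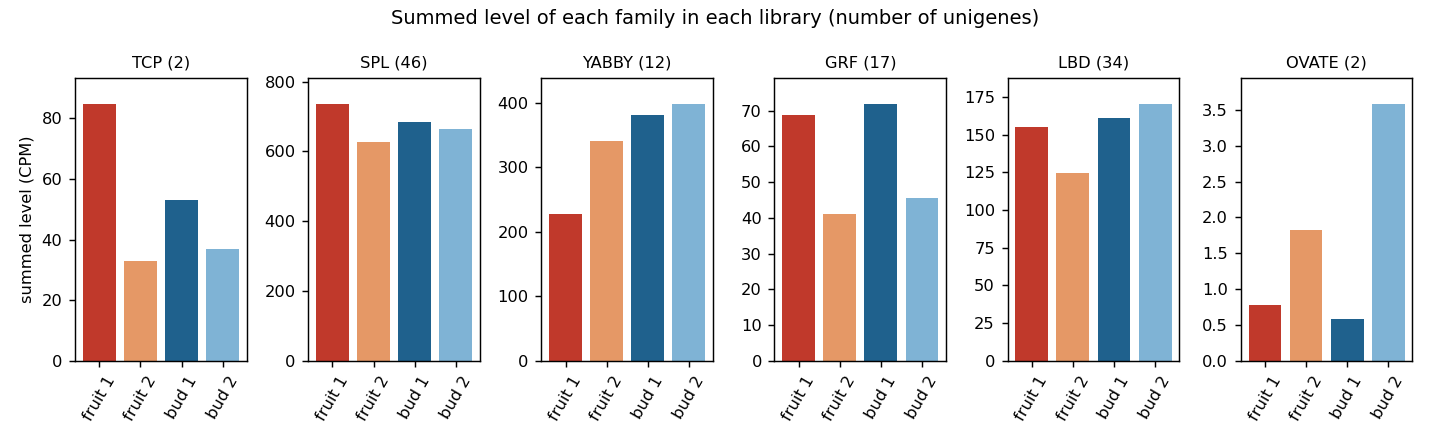
Summed level in CPM of each family (6 panels, each with its own axis from 0) in fruit replicates 1 and 2 and floral bud replicates 1 and 2, 1 bar per library. The YABBY sum is lower in both fruits (227 and 341 CPM) than in either bud (380 and 398 CPM), and the TCP sum is highest in fruit replicate 1 (84.8 CPM) and lowest in fruit replicate 2 (32.9 CPM).

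No member passed the test over all libraries. The quasi-likelihood test of edgeR, adjusted by Benjamini-Hochberg over 59858 unigenes, called 0 of the 90 tested members higher and 0 lower in fruit, and it called 0.0% of all unigenes in either direction. At an unadjusted p under 0.05, 0 members were higher and 2 lower, where 0.51% and 1.11% of all unigenes were. DESeq2's Wald test called 0 of 92 members higher and 1 lower, against 0.0491% and 0.21% of all unigenes. The median log2 fold change was -0.14 over the 90 members and 0.01 over all tested unigenes. By family it was -0.05 for SPL (42 tested), -0.76 for YABBY (10), -0.26 for GRF (11) and -0.39 for LBD (24). These medians depended on the fruit library. The median difference of fruit from bud in log2 CPM was -1.53 in replicate 1 and -0.19 in replicate 2 for YABBY, and -1.39 and -0.27 for LBD. It was -0.16 in replicate 1 and 0.03 in replicate 2 for SPL, and -0.50 and -0.18 for GRF, against -0.04 and 0.0 over all tested unigenes.

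In fruit replicate 1, 13 of the 90 were at least 4-fold below every other library, 4 of them YABBY and 9 LBD, where 5.5% of all unigenes were. At least 4-fold above every other library in fruit replicate 1 were 3 of the 90, 2 SPL and 1 LBD, against 0.558% of all unigenes. In fruit replicate 2 and in either bud, 0 of the 90 stood apart in this way, below or above (0.0301% and 0.765% of all unigenes in fruit replicate 2, 0.02% and 0.0267% in bud replicate 1, 0.0334% and 0.00501% in bud replicate 2). Without fruit replicate 2, edgeR called 6 of 96 members higher and 15 lower (2.29% and 6.14% of all unigenes). Of the 6, Unigene26793_P106 (86 and 9 counts in the fruit libraries, against 5 and 6 in the bud libraries) and Unigene26888_P106 (57 and 5 counts in the fruit libraries, against 2 and 5 in the bud libraries) had not passed the filter over all libraries. They entered this fit through fruit replicate 1, where they are high, so those calls are no support for a difference. Without fruit replicate 1 it called 0 of 94 higher and 2 lower (1.44% and 0.466%). Each of these fits takes the single fruit library left to vary as buds do, and both fits use the same buds.

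**Figure D2:**
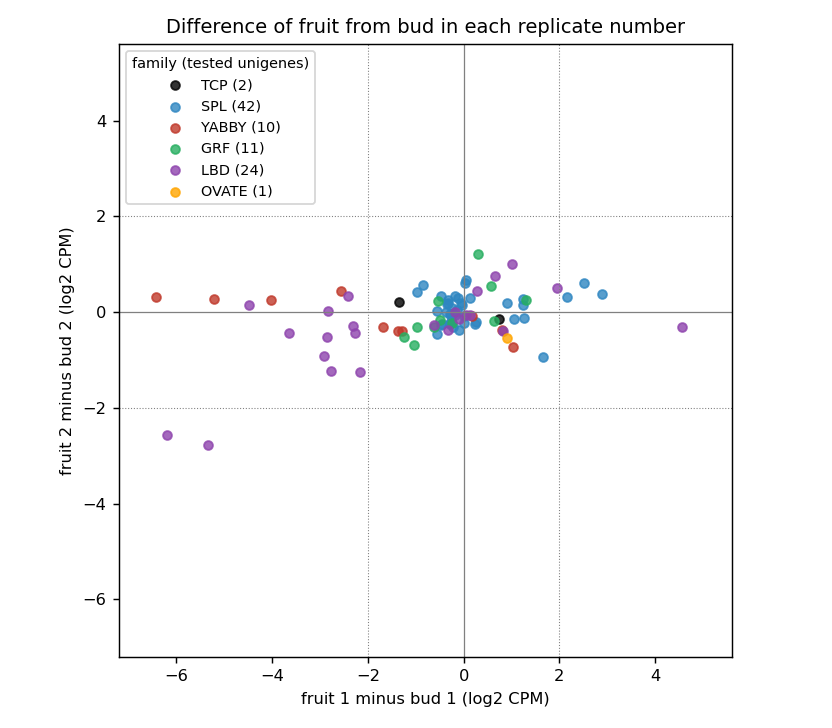
Difference of fruit from floral bud in log2 CPM (prior count 2) for replicate 1 (horizontal) and replicate 2 (vertical), 1 point for each of the 90 tested members, coloured by family, with dotted lines at a 4-fold difference. Several YABBY and LBD unigenes lie far to the left near the horizontal zero line, and 2 LBD unigenes, both LBD27-like, lie more than 4-fold below zero on both axes.

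LBD proteins, named for the LATERAL ORGAN BOUNDARIES gene, held both the lowest and the highest log2 fold change fitted among the members, -4.02 and 2.68. Some descriptions of the family have a known place in pollen: in Arabidopsis LBD27 is SIDECAR POLLEN, needed for the division of the microspore, and LBD25 and LBD36 also serve pollen development. An LBD27-like unigene (Unigene6303_P106, 793 bases) was at 0.222 and 2.91 CPM in the fruit libraries, against 33.3 and 19.2 CPM in the bud libraries. A further one (Unigene72504_P106, 647 bases) was at 0.333 and 1.82 CPM in the fruit libraries, against 22.6 and 14.4 CPM in the bud libraries. For both, each fruit lay far below each bud, and reads covered 12.4% and 48.9% of the length of the first in the fruit libraries, against 66.6% and 68.7% in the bud libraries.

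The log2 fold change of Unigene72504_P106 was -4.02 (SE 0.90, unadjusted p = 0.00822, adjusted p = 1.0 by edgeR's quasi-likelihood test). DESeq2's Wald test gave -4.02 with an adjusted p = 0.00053. For Unigene6303_P106 edgeR gave -3.97 (SE 1.19, unadjusted p = 0.0239, adjusted p = 1.0), and DESeq2 gave -3.93 with an adjusted p = 0.714, which does not pass. These were the 2 members under an unadjusted p of 0.05 and the 2 that edgeR called lower without fruit replicate 1, with log2 fold changes of -3.20 for Unigene72504_P106 (adjusted p = 0.00311) and -3.03 for Unigene6303_P106 (adjusted p = 0.00355). Without fruit replicate 2 the changes were -5.82 for Unigene72504_P106 (adjusted p = 5.44e-07) and -6.88 for Unigene6303_P106 (adjusted p = 5.35e-08). Over all alternatives the adjusted p ran from 5.44e-07 to 1 for Unigene72504_P106 and from 5.35e-08 to 1 for Unigene6303_P106. They were also the only 2 of the 90 members at least 4-fold lower in fruit within both replicate numbers, where 0.66% of all unigenes were, and 0 members were 4-fold higher in both (0.0384%).

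The difference was smaller in the LBD27-like Unigene142421_P106, which stood at 3.11 and 4.61 CPM in the fruit libraries and 4.74 and 5.85 CPM in the bud libraries. The pollen and anther list was higher in fruit replicate 2 (7290 CPM) than in the bud libraries (3408 and 4079 CPM), where these LBD27-like unigenes were lower, and its part in the result was not tested. The 5 LBD36-like unigenes summed to 1.78 and 11.4 CPM in the fruit libraries, against 17.1 and 21.9 CPM in the bud libraries. The LBD25-like unigene was at 0.222 and 2.06 CPM in the fruit libraries and 2.89 and 5.37 CPM in the bud libraries. For both descriptions the organs did not overlap, with fruit replicate 1 the lowest. Over the whole LBD family 3 of 24 tested unigenes were higher and 10 lower in both fruits than in either bud, and over all members it was 9 and 23 of 90, against 8.49% and 13.6% of all unigenes.

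Several LBD transcripts were near the limit of detection in fruit replicate 1 and at bud level in fruit replicate 2. The 3 LBD20-like unigenes summed to 1 count (0.111 CPM) in fruit replicate 1 and to 67 counts (8.13 CPM) in fruit replicate 2, against 56 and 60 counts (6.48 and 7.16 CPM) in the bud libraries. The one that differed most between the fruits, Unigene140798_P106, had 0 and 38 counts in them and 9 and 32 counts in the bud libraries. Fruit replicate 1 was below and fruit replicate 2 above both buds. The edgeR log2 fold change was -0.003 over all libraries and 1.02 without fruit replicate 1. The 4 unigenes like LBD6, known as AS2, a gene of leaf polarity, were at 1.33 and 6.92 CPM in the fruit libraries and 7.06 and 7.05 CPM in the bud libraries.

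Other LBD transcripts were highest in fruit replicate 1. An LBD41-like unigene (Unigene35603_P106), whose Arabidopsis relative responds to low oxygen, was at 59.0 and 5.46 CPM in the fruit libraries, against 2.20 and 7.16 CPM in the bud libraries. The log2 fold change was 2.68 (SE 1.25, adjusted p = 1.0 by edgeR's quasi-likelihood test), 3.52 without fruit replicate 2 (adjusted p = 2.65e-06) and 0.32 without fruit replicate 1; over the alternatives the adjusted p ran from 2.65e-06 to 1. The LBD41-like Unigene118772_P106 did not share this. It was at 5.22 and 6.92 CPM in the fruit libraries and 4.86 and 7.64 CPM in the bud libraries (log2 fold change -0.02). An LBD30-like unigene (Unigene26793_P106), related to a gene of xylem formation in Arabidopsis, was at 9.55 and 1.09 CPM in the fruit libraries and 0.578 and 0.716 CPM in the bud libraries. It did not pass the filter on low counts. Green tissue transcripts were also highest in fruit replicate 1 (14055 CPM, against 4517 CPM in fruit replicate 2), and their part in these values was not tested.

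For a few LBD transcripts the organs did not overlap and the fruits were less than 2-fold apart. An LBD11-like unigene (Unigene95841_P106) was at 9.66 and 5.95 CPM in the fruit libraries and 4.51 and 2.99 CPM in the bud libraries. Its log2 fold change was 1.06 (SE 0.41, unadjusted p = 0.0549 and adjusted p = 1.0 by edgeR's quasi-likelihood test), and the difference was 1.02 between libraries of replicate 1 and 1.01 between those of replicate 2. LOB domain protein 40 averaged 11.5 ± 0.18 CPM in fruit and 14.9 ± 1.0 CPM in bud (SD, n = 2 each). An LBD15-like unigene averaged 6.26 ± 0.27 CPM in fruit and 4.87 ± 0.31 CPM in bud. The most abundant LBD unigene, LBD1-like (Unigene110465_P106), went with the replicate number instead, at 19.2 and 31.7 CPM in the fruit libraries and 21.3 and 33.3 CPM in the bud libraries.

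**Figure D3:**
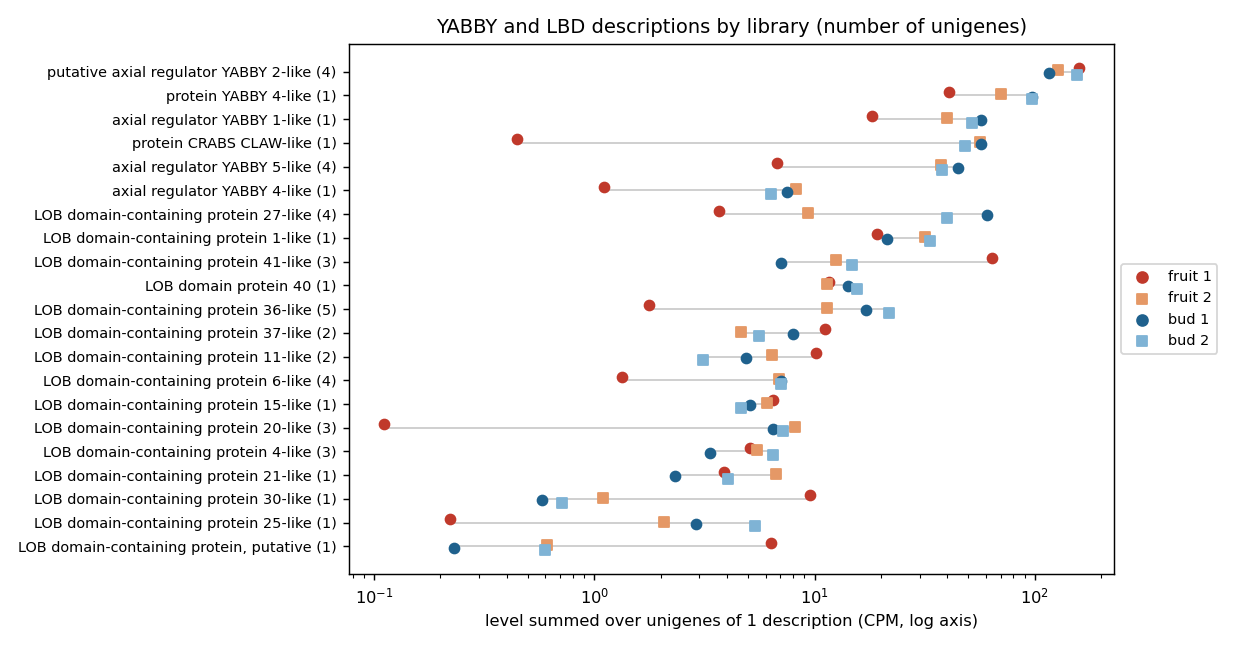
Level in CPM on a log axis, summed over the unigenes of each YABBY and LBD description with a mean of at least 1 CPM; points are fruit replicates 1 and 2 and floral bud replicates 1 and 2, and the number of unigenes is in parentheses. Fruit replicate 1 lies far to the left for CRABS CLAW, YABBY 5 and LBD20 and far to the right for LBD41 and LBD30, while both fruits lie left of both buds for LBD27, LBD36 and LBD25.

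Among YABBY transcripts the fruit libraries parted by gene. CRABS CLAW, the YABBY gene of carpel and nectary identity, had 1 unigene (Unigene118591_P106, 671 bases). It had 4 counts (0.444 CPM) in fruit replicate 1 and 467 counts (56.7 CPM) in fruit replicate 2, against 495 and 403 counts (57.3 and 48.1 CPM) in the bud libraries. Fruit replicate 1 alone was low, and fruit replicate 2 lay between the buds. The log2 fold change was -0.76 (SE 1.79, adjusted p = 1.0 by edgeR's quasi-likelihood test). It was -6.94 without fruit replicate 2 (adjusted p = 2.63e-09) and 0.23 without fruit replicate 1, so that its size and sign rested on which fruit was used; over the alternatives the adjusted p ran from 2.63e-09 to 1.

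The YABBY 5-like unigenes, of a gene of organ polarity, were lowest in the same library. Together the 4 summed to 6.78 and 37.5 CPM in the fruit libraries, against 45.0 and 38.1 CPM in the bud libraries. Unigene28190_P106 had 1 and 96 counts in the fruit libraries and 111 and 84 in the bud libraries, and Unigene9382_P106 7 and 107 counts in the fruit libraries and 139 and 95 in the bud libraries. Unigene28192_P106 of the same description was less low in fruit replicate 1, at 53 and 94 counts in the fruit libraries and 131 and 132 in the bud libraries. An axial regulator YABBY 4-like unigene (Unigene20429_P106), the description of INNER NO OUTER of the ovule's outer integument in Arabidopsis, was at 1.11 and 8.25 CPM in the fruit libraries and 7.52 and 6.33 CPM in the bud libraries.

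The remaining YABBY transcripts lay nearer to the buds. YABBY 1-like (Unigene16810_P106), related to FILAMENTOUS FLOWER, was at 18.2 and 40.0 CPM in the fruit libraries, against 57.1 and 51.9 CPM in the bud libraries. The unigene described as protein YABBY 4-like (Unigene5566_P106) was at 40.8 and 70.4 CPM in the fruit libraries and 96.8 ± 0.02 CPM in the bud libraries (SD, n = 2). Its log2 fold change was -0.75 (SE 0.46, adjusted p = 1.0 by edgeR's quasi-likelihood test), with differences of -1.29 in replicate 1 and -0.39 in replicate 2. These 2 and Unigene28192_P106 were the YABBY unigenes, 3 of 10 tested, whose fruits both lay below both buds, where 13.6% of all unigenes did; 0 of the 10 had both fruits above both buds (8.49%).

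YABBY 2-like transcripts, whose relative in tomato lies at the fasciated locus of locule number, did not share the low level in fruit replicate 1. Unigene28169_P106 averaged 83.3 ± 10.1 CPM in fruit and 80.9 ± 4.64 CPM in bud (SD, n = 2 each). Unigene28101_P106 was at 65.4 and 48.1 CPM in the fruit libraries and 36.5 and 66.0 CPM in the bud libraries. Per length, these were the 2 most abundant of all 113 members, with means over the 4 libraries of 164 and 116 RPKM (reads per kilobase of unigene, scaled to the library total), ahead of protein YABBY 4-like at 70.6 RPKM. CRABS CLAW had a mean of 60.5 RPKM, made up of 0.662 and 84.5 RPKM in the fruit libraries and 85.3 and 71.7 RPKM in the bud libraries.

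SPL factors, which bind the promoters of MADS-box genes such as SQUAMOSA, were at like levels in fruit and bud by their sum, while the log2 fold changes of single unigenes ran from -0.50 to 2.04, none of them past the test. Over the 42 tested unigenes 6 (14.3%) were higher and 5 (11.9%) lower in both fruits than in either bud, where 8.49% and 13.6% of all unigenes were. The median absolute difference of fruit from bud was 0.29 in replicate 1 and 0.24 in replicate 2 on the log2 scale, against 0.39 and 0.30 over all tested unigenes. The 4 unigenes of SPL1-like proteins, large SPL factors that lack a miR156 site in Arabidopsis, summed to 206 and 236 CPM in the fruit libraries and 236 and 247 CPM in the bud libraries. Of them, Unigene119447_P106 was at 75.2 and 112 CPM in the fruit libraries and 87.6 and 125 CPM in the bud libraries. Unigene11052_P106 was at 87.1 and 74.8 CPM in the fruit libraries and 99.4 and 73.9 CPM in the bud libraries, and Unigene120047_P106 averaged 37.3 ± 0.29 CPM in fruit and 41.8 ± 2.55 CPM in bud (SD, n = 2 each). For the first 2 of these the organs overlap, and for the third both fruits lie just below both buds.

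SPL7-like unigenes, of the factor of copper supply, summed to 89.1 and 75.5 CPM in the fruit libraries and 93.9 and 80.7 CPM in the bud libraries. SPL9-like unigenes, of the miR156-controlled factor of phase change, summed to 39.9 and 36.9 CPM in the fruit libraries and 36.8 and 43.9 CPM in the bud libraries. The 12 SPL12-like unigenes summed to 133 and 116 CPM in the fruit libraries and 156 and 128 CPM in the bud libraries. Among these, Unigene109555_P106 had the smallest p of any SPL unigene lower in fruit, at 19.6 and 23.7 CPM in the fruit libraries and 28.0 and 34.1 CPM in the bud libraries (log2 fold change -0.50, SE 0.35, adjusted p = 1.0 by edgeR's quasi-likelihood test). SPL3-like, a small factor under miR156, was at the limit of detection, with 1 and 0 counts in the fruit libraries and 2 counts in each bud.

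SPL8-like transcripts were high in fruit replicate 1. In Arabidopsis SPL8 serves anther and gynoecium development. Unigene16607_P106 was at 52.2 and 9.34 CPM in the fruit libraries, against 8.67 and 6.33 CPM in the bud libraries, and Unigene362_P106 at 27.1 and 5.22 CPM in the fruit libraries, against 3.35 and 4.18 CPM in the bud libraries. Both fruits were above both buds for each unigene, by a wide margin in fruit replicate 1 and a narrow one in fruit replicate 2. The log2 fold changes were 1.98 (SE 0.82) and 2.04 (SE 0.80), with unadjusted p = 0.0647 and 0.0566 and adjusted p = 1.0 for both by edgeR's quasi-likelihood test. They were 2.70 and 2.73 without fruit replicate 2 (adjusted p = 3.81e-05 and 9.91e-05) and 0.44 and 0.59 without fruit replicate 1, and over the alternatives the adjusted p ran up to 1. Other SPL unigenes also lay higher in both fruits than in either bud. The SPL6-like Unigene72081_P106 had 27 and 11 counts in the fruit libraries and 4 and 9 counts in the bud libraries (log2 fold change 1.45, SE 0.73, adjusted p = 1.0 by edgeR's quasi-likelihood test). Unigene12016_P106, described as squamosa promoter-binding protein 1-like, was at 15.2 and 8.25 CPM in the fruit libraries and 6.13 and 7.16 CPM in the bud libraries (log2 fold change 0.80). Unigene128601_P106, an isoform of the same description, was at 21.1 and 11.2 CPM in the fruit libraries and 10.9 and 10.3 CPM in the bud libraries (log2 fold change 0.60). In each of these, fruit replicate 1 was well above the other 3 libraries and fruit replicate 2 just above the buds. Unigene128242_P106 was also higher in both fruits than in either bud, by a small margin (log2 fold change 0.22). Its log2 CPM was lower in fruit replicate 1 than in fruit replicate 2 (difference -0.32). Together the 8 SPL6-like unigenes were highest in fruit replicate 1, with sums of 57.4 and 31.1 CPM in the fruit libraries and 32.4 and 33.6 CPM in the bud libraries. Single SPL6-like unigenes were split. Unigene116492_P106, Unigene114590_P106, Unigene114900_P106 and Unigene115384_P106 were lower in fruit replicate 1 than in fruit replicate 2 (log2 differences of -1.01, -0.99, -0.95 and -0.77) or bud replicate 1.

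**Figure D4:**
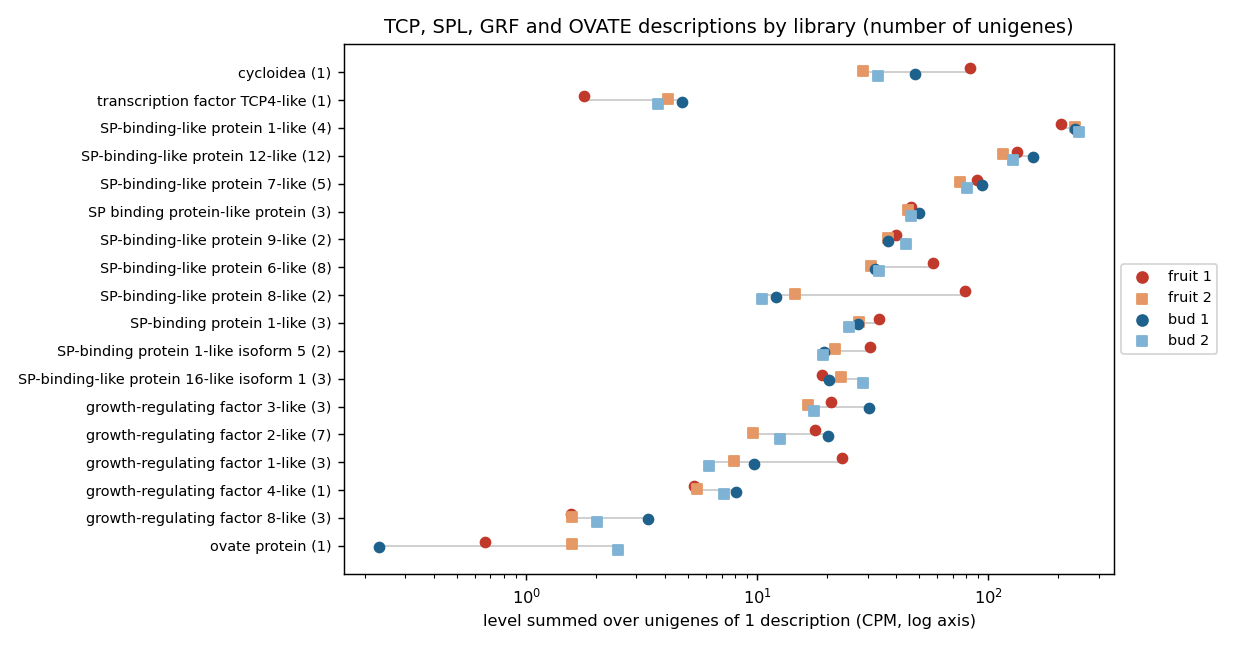
Level in CPM on a log axis, summed over the unigenes of each TCP, SPL, GRF and OVATE description with a mean of at least 1 CPM (SP stands for squamosa promoter); points are fruit replicates 1 and 2 and floral bud replicates 1 and 2. For most SPL descriptions the 4 points lie close together, and SPL8-like stands out with 79.3 CPM in fruit replicate 1, with 14.6 CPM in the other fruit library and 12.0 and 10.5 CPM in the bud libraries.

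GRF transcripts, for factors that raise cell number in young organs together with GIF coactivators, had log2 fold changes of -1.01 to 0.97 over the 11 tested unigenes. The highest was that of a GRF1-like unigene (Unigene130065_P106), at 21.1 and 6.43 CPM in the fruit libraries and 8.10 and 5.61 CPM in the bud libraries. Fruit replicate 1 was above the other 3 libraries, and the log2 fold change was 0.97 (SE 0.60, adjusted p = 1.0 by edgeR's quasi-likelihood test), 1.53 without fruit replicate 2 (adjusted p = 0.0462, with a range up to 1 over the alternatives) and 0.04 without fruit replicate 1. The GRF3-like unigenes Unigene94288_P106 and Unigene26162_P106 were at 11.3 and 8.86 CPM and at 8.44 and 7.28 CPM in the fruit libraries, against 15.6 and 10.5 CPM and 12.0 and 6.45 CPM in the bud libraries.

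Lower in both fruits than in either bud were 5 of 11 tested GRF unigenes, where 13.6% of all unigenes were, and 0 were higher. They were 3 GRF2-like, 1 GRF4-like and 1 GRF8-like, with log2 fold changes of -0.26 to -1.01. GRF4-like was at 5.33 and 5.46 CPM in the fruit libraries and 8.10 and 7.16 CPM in the bud libraries. The GRF2-like Unigene37840_P106 was at 2.11 and 2.31 CPM in the fruit libraries and 5.20 and 3.58 CPM in the bud libraries (log2 fold change -0.96, SE 0.43, unadjusted p = 0.084 and adjusted p = 1.0 by edgeR's quasi-likelihood test). The GRF2-like Unigene86442_P106 was at 1.78 and 0.971 CPM in the fruit libraries and 3.82 and 1.79 CPM in the bud libraries (log2 fold change -1.01, SE 0.60), and GRF8-like (Unigene6976_P106) at 1.33 CPM in both fruit libraries and 2.78 and 1.79 CPM in the bud libraries (-0.75, SE 0.50). The GIF coactivators, 5 unigenes, summed to 90.2 and 83.3 CPM in the fruit libraries and 90.7 and 92.3 CPM in the bud libraries.

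Of the TCP pair, the cycloidea unigene (Unigene70466_P106), a relative of the snapdragon gene of flower symmetry, was at 83.0 and 28.8 CPM in the fruit libraries and 48.2 and 33.3 CPM in the bud libraries. Its fruits lay on either side of both buds, and the log2 fold change of 0.43 (SE 0.54) turned to -0.37 without fruit replicate 1. TCP4-like (Unigene71250_P106), of the miR319-controlled class that limits leaf growth, was at 1.78 and 4.13 CPM in the fruit libraries and 4.74 and 3.70 CPM in the bud libraries. The TCP unigenes outside the wording of the rule summed to 564 and 403 CPM in the fruit libraries and 467 and 442 CPM in the bud libraries. OVATE (Unigene58893_P106) was near the floor, with 6 and 13 counts in the fruit libraries and 2 and 21 counts in the bud libraries. The bud libraries were farther apart than the fruit libraries, with log2 differences (replicate 1 minus replicate 2) of -1.18 between the fruits and -2.63 between the buds, and the organs overlap.

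Other genes listed with the same pathways also gave no call over all libraries. The lists were filled by words in the descriptions, and whether each gene acts in the pathway was not tested. The OVATE list took longifolia, TRM and IQ-domain descriptions, and the TCP list cup-shaped cotyledon and lipoxygenase descriptions. By the quasi-likelihood test of edgeR, 0 were higher and 0 lower in fruit among 4 tested GIF coactivators, 47 YABBY corepressors and polarity partners, 8 LBD partners and targets, 34 TCP targets, 7 SPL targets, 68 OVATE partners and 63 genes of the small RNA machinery, where 0.0% of all unigenes were. DESeq2 called 0 in each list as well. The polarity partners (LEUNIG, SEUSS, KANADI and class III HD-ZIP descriptions, 71 unigenes) summed to 637 and 617 CPM in the fruit libraries and 600 and 631 CPM in the bud libraries. Their median log2 fold change was 0.04, and -0.18 without fruit replicate 2. The TCP targets were at 1919 and 2574 CPM in the fruit libraries and 4071 and 3009 CPM in the bud libraries. Their sum was lower in both fruits, while the median log2 fold change of the 34 tested was 0.02 over all libraries, 0.27 without fruit replicate 2 and -0.25 without fruit replicate 1.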

How the data were processed

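The deposited counts are, per the file headers, uniquely mapped reads per unigene, and each header's total equals its column sum. Unigenes missing from a file were taken as 0. The deposited RPKM values, scaled per the file headers by length and library total, were used to compare levels between genes. The deposited coverage, per the file headers a percent of each unigene's length, is given for 1 unigene. For the assembler and aligner, the sources used here give no name. Descriptions came from the replicate 2 files, else from the replicate 1 files.

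Counts were tested with edgeR 4.0.16 (R 4.3.3): filterByExpr by organ (59858 unigenes), TMM factors of 0.918 to 1.08, glmQLFit and glmQLFTest with 2 residual degrees of freedom, Benjamini-Hochberg adjustment, threshold 0.05, two-sided. SE is the log2 fold change over the square root of F. DESeq2 1.42.0 was an alternative. CPM use library totals; log2 CPM use TMM factors and a prior count of 2. Exact permutation of 2 against 2 libraries cannot go below p = 0.333 and was not run. In simulated data edgeR recovered 3, 31, 50 and 50 of 50 unigenes changed 4, 16, 64 and 256-fold (56445 unigenes). There all unigenes shared a dispersion of 0.283, and the changed ones were drawn from those with a mean count over 50. The recovery therefore does not cover members with lower counts or a larger spread between libraries.

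Members, lists and tests were chosen with earlier results of these data known. Named were, per family and at a mean of at least 1 CPM, the 3 most abundant tested unigenes, the smallest p in each direction and the largest gap between fruits, plus each edgeR or DESeq2 call and each unigene 4-fold apart within both replicate numbers; others, and the sums by description, were picked with their values in view. The mixed library has no counts here and was not analysed here.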

Additional observations from a re-analysis of the deposited data

How the results depend on the processing

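The median log2 fold change of the tested members kept its sign under each alternative. It was -0.28 without fruit replicate 2 and -0.038 to -0.28 with 1 library left out. Without fruit replicate 1 it was -0.038, while the median over all unigenes in that fit was -0.047. In that fit the members thus did not lie below the rest. With 1 library left out, edgeR called 0 to 1546 unigenes higher and 0 to 4135 lower in fruit, and of the members 0 to 6 higher and 0 to 15 lower; calls came when either fruit was left out, and 0 when either bud was. DESeq2 called 30 unigenes higher and 128 lower, with 0 and 1 among the members; the cause was not tested. Other size factors, library totals only, other filters and members found from the replicate 1 descriptions (36 unigenes) gave 0 calls. The labels do not say what a replicate number marks. The deviations of same-numbered libraries correlated at 0.47 over all unigenes and at 0.13 over the 90 tested members. Over all unigenes, fruit replicate 1 correlated better with bud replicate 1 (r = 0.768 in log2 CPM) than with fruit replicate 2 (0.645). Over the members the order was the reverse, with r = 0.59 for bud replicate 1 and 0.68 for fruit replicate 2. These values cannot settle a pairing with 2 numbers. EdgeR edgeR with a replicate block called 0 higher and 0 lower (median -0.13). Signs that turned with 1 library left out ran from -0.37 to 0.93 for Unigene70466_P106, -1.34 to 0.093 for Unigene71250_P106, -0.62 to 0.23 for Unigene119447_P106, -0.20 to 0.077 for Unigene11052_P106, -0.071 to 0.20 for Unigene28169_P106, -0.28 to 0.72 for Unigene28101_P106, -6.94 to 0.23 for Unigene118591_P106, -0.51 to 0.23 for Unigene26162_P106, -0.63 to 0.40 for Unigene110465_P106, -7.48 to 1.34 for Unigene140798_P106 and -1.17 to 2.35 for Unigene58893_P106 (log2 fold changes). Unigene140798_P106 also turned with DESeq2 (0.017), median-of-ratios factors (0.012) and no filter (0.016), and Unigene58893_P106 with the replicate block (0.037); the cause was not tested.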
